A study of Mus musculus with 214 samples.

Results

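Cholangiocytes, the cells that line the bile ducts, and the small cells of the ductular reaction are the main liver cells that make keratins 19 and 7, the adhesion molecule EpCAM and the transcription factor SOX9. Hepatocytes carry only the keratin pair 8 and 18 in the healthy liver. A ductular reaction is the growth of ductules and of cells with biliary features that follows many kinds of liver injury, and osteopontin, the product of Spp1, is among its secreted proteins. The 9 genes described here, Krt19, Krt7, Krt8, Krt18, Epcam, Sox9, Spp1, Cd24a and Cldn7, were taken by symbol from the expression values of mouse liver, and all 9 are among the 18287 symbols shared by both genotypes (18647 genes in WT and 19540 in Mgmt-/- livers).

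Livers came from WT mice (RaDR+/+;GPT+/+) and from Mgmt-/- mice (RaDR+/+;GPT+/+;Mgmt-/-), both on a C57BL6 background. All mice carried the recombination reporter (RaDR) and the mutation reporter (GPT), so no group is free of these transgenes. Pups of both sexes were injected with saline or with N-nitrosodimethylamine (NDMA), an alkylating agent activated in the liver, at 3.5 mg/kg when 8 days old and at 7 mg/kg when 15 days old. Because treatment was set by litter, effects of litter and of treatment cannot be told apart. RNA was taken 1, 2 or 5 days (Day1, Day2, Day5), 10 weeks (Week10) or 10 months (Month10) after the second injection, and the labels do not say whether a Month10 piece of liver held tumor. In this order of times, the numbers of NDMA and saline livers were 26 and 21, 8 and 8, 8 and 7, 8 and 8, and 13 and 10 in WT mice, and 12 and 12, 8 and 7, 8 and 6, 8 and 8, and 13 and 12 in Mgmt-/- mice.

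Mgmt itself, the gene removed in the knockout, had 13 to 130 normalized counts in WT livers (median 45.8) and 0 to 9.67 in Mgmt-/- livers (median 1.10), without overlap. A normalized count is the number of reads of a gene divided by the size factor of its library, and each genotype was scaled by itself. WT libraries held 150038 to 4791649 reads and Mgmt-/- libraries 713584 to 7740710, and 4 WT NDMA libraries had fewer than 300000. In 2 WT NDMA Day1 libraries the sex genes went against the labelled sex. Beyond those counted above, 2 Mgmt-/- saline Day5 libraries stood apart and were left out. They held 6147 and 7562 normalized counts of the kidney gene Kap, and their Alb counts, from the hepatocyte albumin gene, were 525.9 and 161, while Kap reached at most 1.80 in the other 6 libraries of that group. In liver RNA as a whole, fewer cells of a type and less RNA per cell cannot be told apart. Albumin or transthyretin led the hepatocyte markers in each group of Mgmt-/- livers, as the tissue label gives.

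By position in GRCm38 (GENCODE vM21), Krt8 (ENSMUSG00000049382.10, chr15:101996698-102004482, minus strand) and Krt18 (ENSMUSG00000023043.7, chr15:102028180-102032027, plus strand) are neighbours that point away from each other, with 23697 bases between them. Krt7 (ENSMUSG00000023039.17) lies on the same chromosome at chr15:101411043-101430313. Krt19 (chr11:100140810-100148665), Sox9 (chr11:112782224-112787760) and Cldn7 (chr11:69964779-69967885) lie on chromosome 11. Spp1 (ENSMUSG00000029304.14) is at chr5:104435118-104441050, Cd24a at chr10:43578284-43584265 and Epcam at chr17:87635979-87651129, and all 9 are protein-coding genes. A processed copy, Krt8-ps, is annotated but was not analysed here, and how reads that match both were assigned is not given in the sources used here, so Krt8 values are uncertain to that extent.

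The promoters of Krt8, Krt18 and Spp1 are shown because these are the members whose response carries the results: Krt18 was called at all 5 times and Krt8 at 4 of them in Mgmt-/- livers, and Spp1 was called lower at Day1 and Day5 and higher at Week10 and Month10. RefSeq promoters (GRCm38.p6) were matched for Krt7, Krt8, Krt18, Epcam, Spp1 and Cldn7, and the 250 bases before a start were read on the strand of the gene. Capitals mark matches on either strand to AP-1 (TGANTCA), ETS (AGGAAG), RUNX (ACCACA), TEAD (GGAATG), RBPJ (TGGGAA), SOX (ACAATG), HNF1 (GTTAAT) and the TATA box (TATAAA), none of which contains another.
Krt8, chr15:102004343-102004592, minus strand: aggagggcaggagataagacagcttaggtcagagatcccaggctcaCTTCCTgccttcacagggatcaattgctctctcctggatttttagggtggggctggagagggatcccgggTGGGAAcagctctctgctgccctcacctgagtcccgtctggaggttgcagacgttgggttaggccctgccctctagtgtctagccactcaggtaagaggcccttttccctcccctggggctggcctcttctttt
Krt18, chr15:102027966-102028215, plus strand: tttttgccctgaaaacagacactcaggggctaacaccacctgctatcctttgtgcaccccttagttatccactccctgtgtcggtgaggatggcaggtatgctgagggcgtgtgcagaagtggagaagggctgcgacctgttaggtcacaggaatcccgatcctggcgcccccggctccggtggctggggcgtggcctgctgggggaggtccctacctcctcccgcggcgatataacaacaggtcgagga
Spp1, chr5:104434861-104435110, plus strand, the first of its 2 starts: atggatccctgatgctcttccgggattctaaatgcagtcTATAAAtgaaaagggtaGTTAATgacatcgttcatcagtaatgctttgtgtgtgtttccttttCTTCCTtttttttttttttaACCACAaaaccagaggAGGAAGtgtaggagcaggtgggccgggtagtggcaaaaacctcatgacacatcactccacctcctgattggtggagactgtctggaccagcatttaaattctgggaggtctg

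The Krt8 window held 1 ETS and 1 RBPJ match, and the Krt18 window held none of the 8 motifs. The Spp1 window held 2 ETS matches and 1 each of RUNX, HNF1 and the TATA box. Among 32536 promoter windows of the same length, 29.6% held the ETS letters, 21.6% RBPJ, 14.0% RUNX, 12.6% TEAD, 12.3% the TATA box, 10.5% SOX, 6.73% AP-1 and 6.47% HNF1. A match describes the letters of the window, not a bound site.

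In Mgmt-/- livers, NDMA was followed by higher Krt18 at all 5 times and higher Krt8 at the first 4, while Spp1 was lower at Day1 and Day5 and higher at Week10 and Month10, and Cd24a was lower at Day1 and Day2 and higher at Week10. NDMA was compared with saline within each genotype and time with limma on log2(normalized count + 1). A gene was called at an adjusted p under 0.05, over all genes with a mean of at least 5, and a log2 fold change beyond 0.58 in either direction. Of the 9 members, 5, 4, 4, 5 and 5 passed the filter on low values at Day1, Day2, Day5, Week10 and Month10, and Krt19, Krt7, Epcam and Cldn7 were below it at each time. Among those tested, 2 were higher and 2 lower at Day1, where 9.06% of all tested genes were higher and 8.64% lower. At Day2, 2 were higher and 1 lower, beside 12.4% and 7.5% of all genes, and at Day5 2 were higher and 1 lower, beside 11.1% and 6.71%. At Week10, 4 of 5 were higher and 0 lower, beside 7.27% and 3.88% of all genes, and 1 of the 4, Cd24a, passed the filter only through the NDMA group. At Month10, 2 of 5 were higher and 0 lower, beside 4.75% and 2.99%. The background split moved with the scaling: with library totals made equal, 1635 genes were higher and 512 lower at Day1, against 911 and 869 as scaled here. The same change gave 1681 and 413 against 1170 and 710 at Day2, 1451 and 412 against 1037 and 624 at Day5, 1162 and 177 against 704 and 376 at Week10, and 434 and 216 against 478 and 301 at Month10. The counts of members called in each direction were the same under both scalings.

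**Figure D1:**
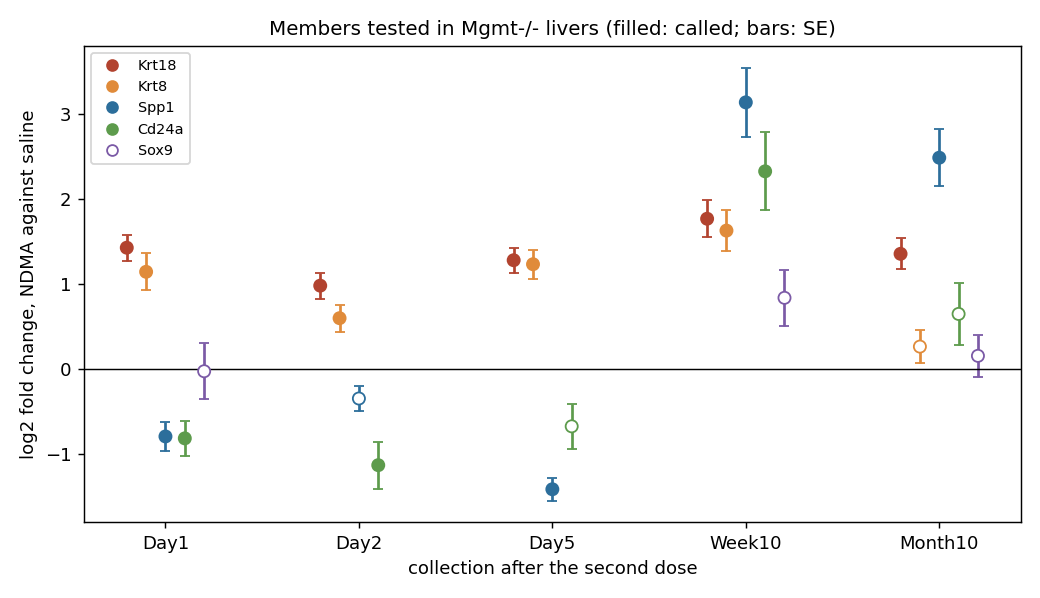
Log2 fold change of NDMA against saline in Mgmt-/- livers at the 5 collection times for the 5 members that passed the filter, with standard errors as bars. Filled points are called, and Spp1 goes from -1.41 at Day5 to 3.13 at Week10 while Krt18 stays between 0.98 and 1.77.

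Krt18 and Krt8 encode the paired intermediate filament proteins of simple epithelia, present in hepatocytes as well as in bile ducts. In Mgmt-/- livers at Day1, Krt18 was at 210, 441 and 732 normalized counts (lowest, median and highest of 12) after NDMA and at 85.5, 166 and 296 after saline. The groups overlapped in 2 NDMA livers, and 10 of 12 lay above the highest saline liver (log2 fold change 1.43 ± 0.15 SE, adjusted p = 2.347e-09). At Day2, Day5 and Week10 the Krt18 groups did not overlap. Median levels were 446 against 210 at Day2 (0.98 ± 0.15, adjusted p = 2.83e-05), 546 against 218 at Day5 (1.28 ± 0.14, adjusted p = 3.05e-07) and 523 against 148 at Week10 (1.77 ± 0.22, adjusted p = 4.124e-06). At Month10 Krt18 was at 195, 454 and 628 after NDMA and at 71.4, 193 and 270 after saline, and 12 of 13 NDMA livers lay above every saline liver (1.35 ± 0.18, adjusted p = 5.905e-06). The groups were thus apart at Day2, Day5 and Week10 and overlapped at Day1 and Month10. At Day1 it was also called within each of the 2 library batches, at 1.31 ± 0.20 and 1.66 ± 0.21.

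Krt8 was called at 4 of the 5 times. At Day1 it was at 54.2, 94.1 and 199 normalized counts after NDMA and at 18.3, 45.3 and 109 after saline, with 4 of 12 NDMA livers above the highest saline liver (1.14 ± 0.22, adjusted p = 0.000132). At Day2, median levels were 59.8 and 44.0, with 7 of 8 NDMA livers above the highest saline liver (0.60 ± 0.16, adjusted p = 0.006039). This Day2 call was lost with edgeR, with DESeq2, with a pseudocount of 5 and in each sex alone. At Day5 (61.3, 90.5 and 115 against 25.6, 41.0 and 47.4) and Week10 (73.9, 122 and 189 against 19.6, 41.3 and 67.9) the groups did not overlap, with log2 fold changes of 1.23 ± 0.17 (adjusted p = 4.747e-06) and 1.63 ± 0.24 (adjusted p = 3.591e-05). The Week10 call was lost in males alone (1.145 ± 0.33, adjusted p = 0.1015). At Month10 Krt8 was at 52.2, 110 and 290 after NDMA and at 73.1, 109 and 132 after saline, and the difference did not pass the test (0.27 ± 0.20, adjusted p = 0.4373). The NDMA livers there spread both above and below the saline livers, 5 above the highest and 1 below the lowest.

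Osteopontin is a secreted matrix protein that cholangiocytes, activated macrophages and stellate cells can make. Spp1 was lower than in saline livers early and higher late. At Day1 it was at 48.5, 124 and 217 normalized counts in Mgmt-/- NDMA livers and at 108, 205 and 346 in saline livers, and 4 of 12 NDMA livers lay below the lowest saline liver (log2 fold change -0.79 ± 0.17, adjusted p = 0.0004246). Both batches gave a call at Day1, at -0.66 ± 0.18 and -1.05 ± 0.29, and so did females alone (-1.08 ± 0.20), while in males alone the difference did not pass (-0.50 ± 0.23, adjusted p = 0.1911). At Day2 the medians were 222 and 277, with overlapping groups, and the difference did not pass (-0.34 ± 0.14, adjusted p = 0.08188). At Day5 all 8 NDMA livers (92.6, 110 and 166) lay below all 6 saline livers (238, 318 and 342), a log2 fold change of -1.41 ± 0.13 (adjusted p = 1.458e-08). The 2 saline libraries of high Kap that were left out held 6797 and 6394 normalized counts of Spp1, and with them kept the log2 fold change was -2.52 ± 0.75.

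By the adult stage the order had turned. At Week10, Spp1 was at 401, 805 and 1821 normalized counts after NDMA and at 48.1, 75.9 and 621 after saline (3.13 ± 0.41, adjusted p = 2.37e-05). A single saline male at 621 made the groups overlap, since the next saline liver was at 95.2, and 5 of 8 NDMA livers lay above it. Without this male the log2 fold change was 3.52 ± 0.27. At Month10 all 13 NDMA livers (147, 336 and 3669) lay above all 12 saline livers (27.7, 65.8 and 115), a log2 fold change of 2.48 ± 0.33 (adjusted p = 1.52e-05), and of 2.26 ± 0.25 without the liver at 3669.

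**Figure D2:**
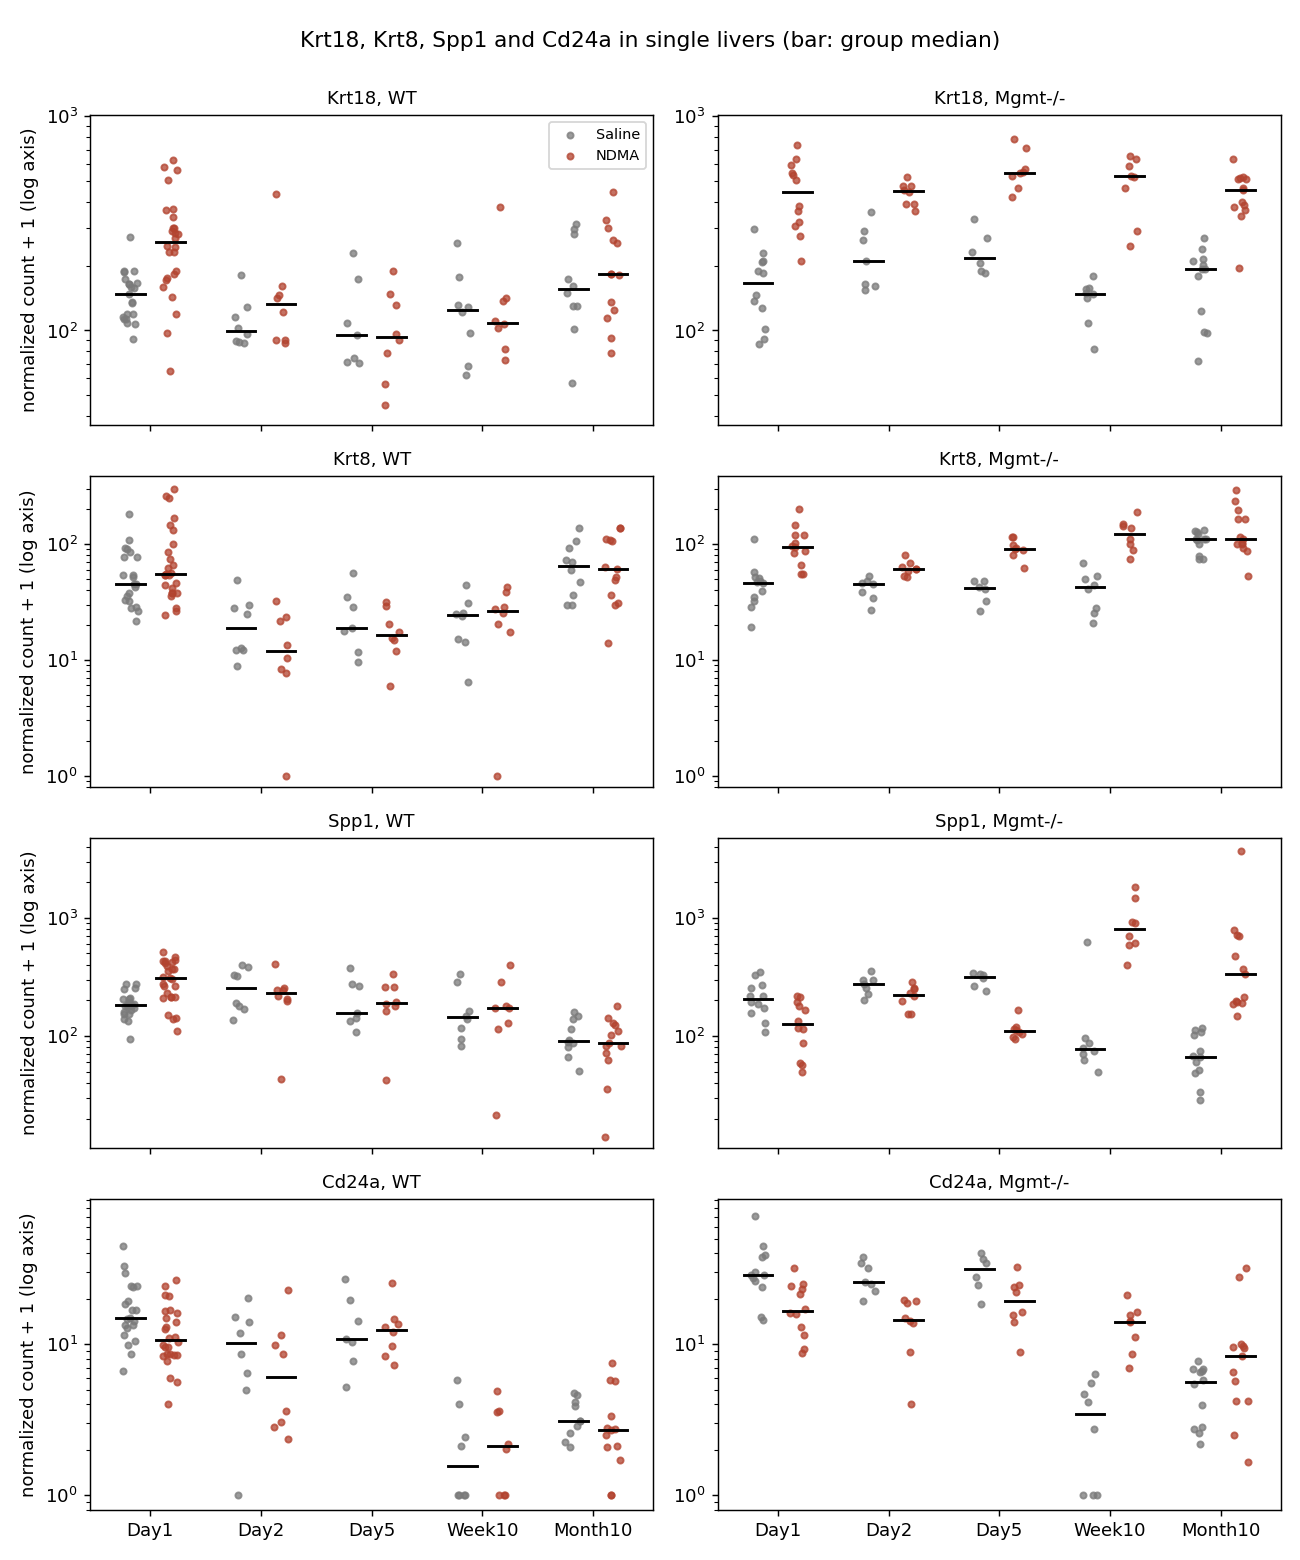
Normalized count + 1 (log axis) of Krt18, Krt8, Spp1 and Cd24a in each liver by collection time, with saline in grey, NDMA in red and a black bar at the group median, for WT (left) and Mgmt-/- (right). In Mgmt-/- livers the Spp1 groups are apart with NDMA lower at Day5 and apart with NDMA higher at Month10, while WT groups overlap at each time.

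Cd24a encodes a small glycoprotein of the cell surface that is found on biliary and progenitor cells and on many blood cells. At Day1 it was at 7.74, 15.6 and 31.2 normalized counts after NDMA and at 13.5, 27.9 and 69.5 after saline in Mgmt-/- livers (-0.81 ± 0.21, adjusted p = 0.002854), which passed in females alone and not in males alone (-0.73 ± 0.31, adjusted p = 0.1554). By batch, Cd24a was called at Day1 in 191212Eng alone and not in 200803Eng alone. At Day2 7 of 8 NDMA livers lay below the lowest saline liver (-1.13 ± 0.28, adjusted p = 0.003092), a call lost in females alone (-1.11 ± 0.41, adjusted p = 0.0831), and at Day5 the difference did not pass (-0.67 ± 0.26, adjusted p = 0.06791). Erythroid and neutrophil transcripts, and at Day1 the B cell gene Cd79b, all from cells that can carry CD24, were lower in the same libraries, as described with the marker lists. At Week10 Cd24a was at 5.91, 13.1 and 20.3 after NDMA and at 0, 2.43 and 5.34 after saline, without overlap (2.32 ± 0.46, adjusted p = 0.001007). In males alone this did not pass (1.83 ± 0.62, adjusted p = 0.2001), and edgeR did not test it. Its saline mean of 2.30 was under the filter of 5. At Month10 it was at 0.663, 7.32 and 31.2 against 1.17, 4.61 and 6.75, and the difference did not pass (0.65 ± 0.36, adjusted p = 0.2715).

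Krt19, Krt7, Epcam and Cldn7, the markers most restricted to bile duct cells among the 9, had few reads in each group, so their reads were summed over the libraries of a group and divided by the group's total, as reads per 1000000 reads (RPM), with exact 95% Poisson intervals. These intervals cover counting error only, not the spread between mice. At Week10 Krt19 had 46 reads in the 8 Mgmt-/- NDMA livers, 2.23 RPM (1.63 to 2.97), and 2 reads in the 8 saline livers, 0.176 RPM (0.0213 to 0.636). Krt7, the partner keratin of biliary cells, was at 1.99 RPM (1.43 to 2.70) against 0.704 (0.304 to 1.39). Epcam, the adhesion molecule of biliary epithelium, was at 2.91 (2.22 to 3.74) against 0.704 (0.304 to 1.39). The 4 genes share the same direction in these sums, and the intervals of the 2 groups did not overlap for any of them at Week10. The share of all genes with intervals apart was not measured. RPM divides by library totals, and with totals made equal 1162 genes were called higher and 177 lower at Week10. A single NDMA library held 7740710 of the 20640693 reads of its group. Cldn7, a claudin of tight junctions, was at 2.62 (1.97 to 3.41) against 0.176 (0.0213 to 0.636). A single Week10 female held 23 of the 46 Krt19 reads.

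At Month10 the sums were again higher after NDMA in Mgmt-/- livers. Krt19 was at 2.63 RPM (1.98 to 3.43) against 0.657 (0.315 to 1.21), and Epcam at 2.78 (2.11 to 3.59) against 1.18 (0.700 to 1.87). Krt7 was at 1.96 (1.41 to 2.66) against 0.788 (0.407 to 1.38), and Cldn7 at 1.44 (0.969 to 2.05) against 0.263 (0.0716 to 0.672). From liver to liver these genes overlapped between the groups, with 5, 4, 7 and 7 of 13 NDMA livers above the highest saline liver for Krt19, Krt7, Epcam and Cldn7. In the first 5 days the intervals of NDMA and saline overlapped for these 4 genes in Mgmt-/- livers, among them Krt19 at 2.09 (1.57 to 2.72) against 1.78 (1.35 to 2.31) at Day1. With no filter on low values, limma called Krt19 (1.495 ± 0.46, adjusted p = 0.04921), Epcam (1.47 ± 0.39, adjusted p = 0.01874) and Cldn7 (1.71 ± 0.43, adjusted p = 0.01321) at Week10 and not Krt7 (1.07 ± 0.52, adjusted p = 0.2501). At Month10 it called none of the 4, and Krt19 stood at 1.14 ± 0.38 (adjusted p = 0.06952). DESeq2 on whole reads called Krt19 at both late times, with adjusted p = 0.02822 and 0.02544. It called 6 of the 9 members higher at Week10, where limma with no filter called 7, and 3 at Month10, where limma called 2. Over all genes at Week10, DESeq2 called 919 of 13992 higher and limma with no filter 991 of 17655. At Month10 these were 711 of 14272 and 598 of 17747.

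**Figure D3:**
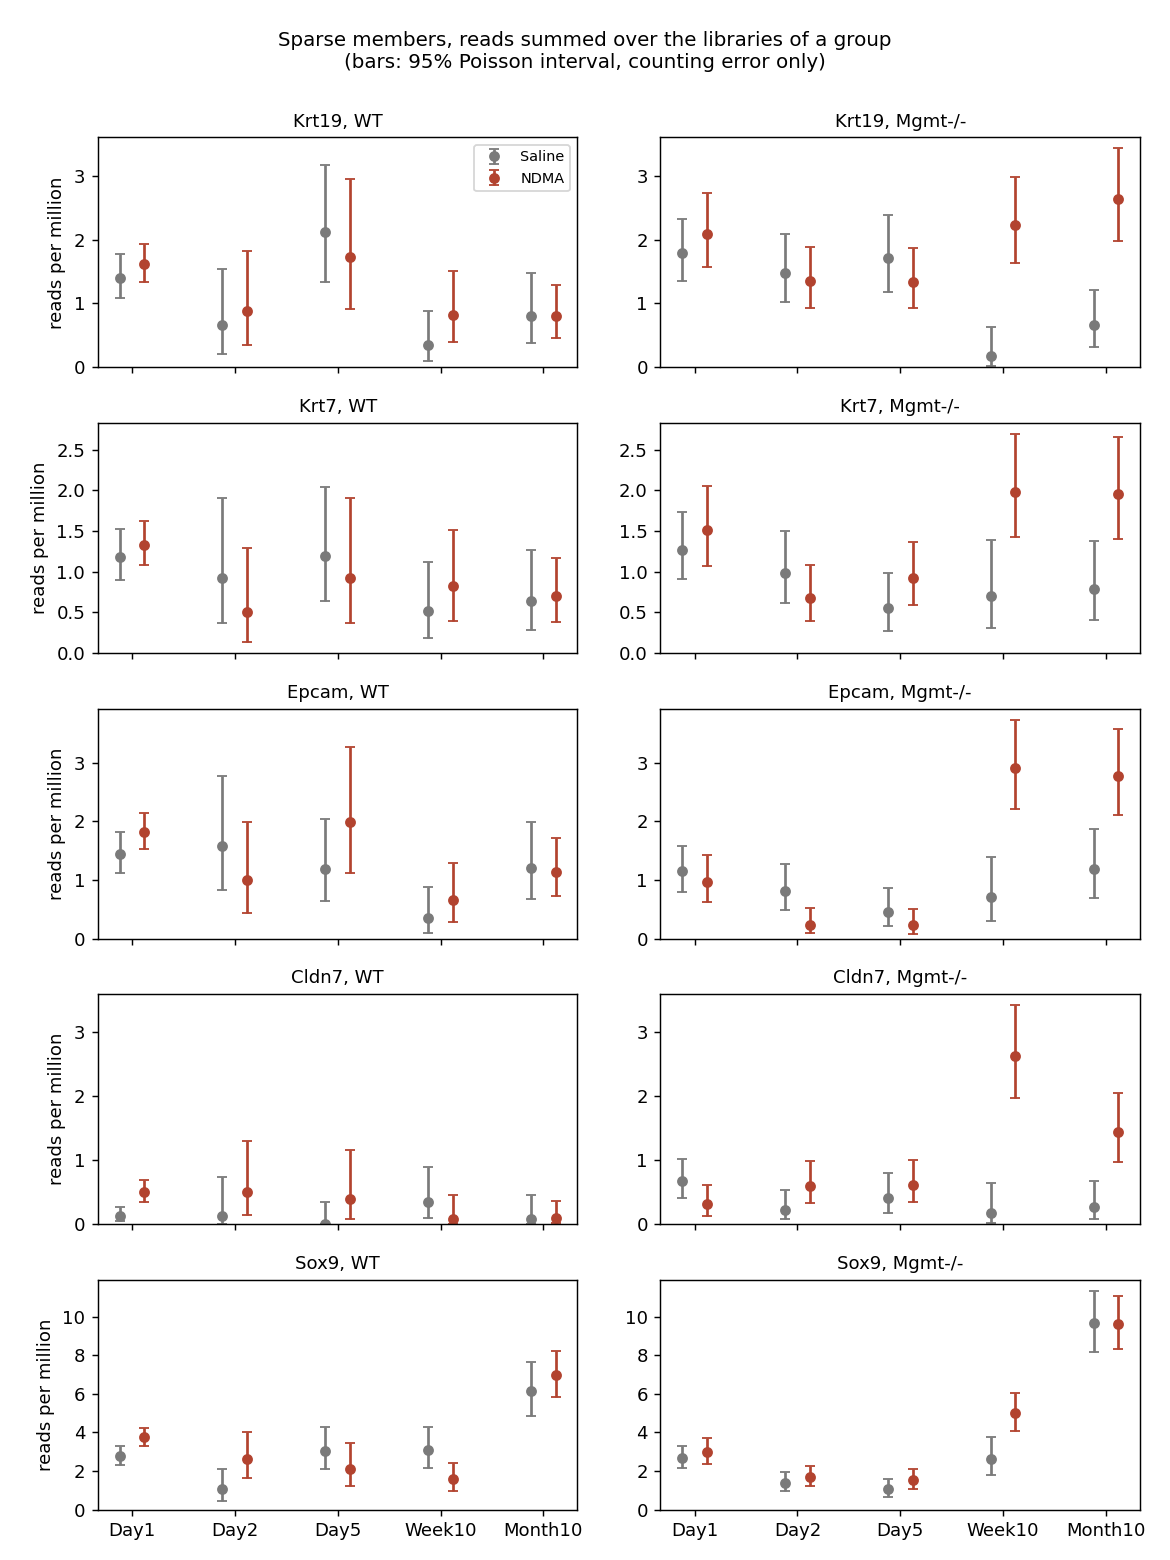
RPM, summed over the libraries of a group, for Krt19, Krt7, Epcam, Cldn7 and Sox9 by collection time in WT (left) and Mgmt-/- livers (right), with saline in grey, NDMA in red and 95% Poisson intervals of counting error as bars. In Mgmt-/- livers the intervals of Krt19 are apart at Week10 (2.23 against 0.176) and Month10 (2.63 against 0.657), whereas those of Sox9 overlap at Month10.

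Sox9 encodes a transcription factor of bile duct development that periportal hepatocytes and progenitor-like cells can also express. It was below the filter at Day2 and Day5 in Mgmt-/- livers and did not pass the test at Day1, Week10 or Month10. At Week10 it was at 4.38, 10.5 and 15.9 normalized counts after NDMA and at 2.04, 4.73 and 9.40 after saline, and 5 of 8 NDMA livers lay above the highest saline liver (0.84 ± 0.33, adjusted p = 0.1105). Summed over libraries, Sox9 at Week10 was at 4.99 RPM (4.07 to 6.05) against 2.64 (1.78 to 3.77), so the counting intervals were apart while the livers overlapped. At Month10 it was at 8.10, 15.9 and 44.4 against 5.54, 16.4 and 20.6 (0.16 ± 0.25, adjusted p = 0.7441).

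In WT livers, Krt18 and Spp1 were higher after NDMA at Day1 and 0 members were called later. Of 5 tested members, 2 were called at Day1, beside 9.19% of all tested genes in either direction. Of the genes tested, 378 were called lower, and 279 with library totals made equal. Krt18 was at 63.8, 258 and 623 normalized counts in 26 NDMA livers and at 90.5, 148 and 271 in 21 saline livers, and 12 NDMA livers lay above the highest saline liver (0.76 ± 0.14, adjusted p = 2.084e-05). Spp1 was at 109, 306 and 513 against 93.5, 183 and 275, with 14 of 26 above the highest saline liver (0.65 ± 0.13, adjusted p = 0.0002393). Both differences were called within 2 of the 3 batches and not in the smallest, batch 200803Eng, where Krt18 was at 0.18 ± 0.30 and Spp1 at 0.18 ± 0.29. Cd24a at Day1 had an adjusted p of 0.03573 with a log2 fold change of -0.54 ± 0.19, short of the fold required. It was called by edgeR (-0.58, adjusted p = 0.02193) and in batch 191212Eng alone (-1.09 ± 0.32, adjusted p = 0.02387), and not in batches 210901Eng (-0.46 ± 0.24) or 200803Eng (0.08 ± 0.38). Among WT markers of other cells at Day1, 3 of 7 tested for macrophages were higher (Cd68, Lyz2 and Ccr2). Of 9 tested for stellate cells and fibroblasts, Acta2 and Timp1 were higher and Lrat, Reln, Col1a2 and Col3a1 lower. The 5 hepatocyte markers had summed medians of 190700 against 247600, with 0 called. The part of these cells in WT Spp1 and Krt18 was not tested.

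At Day2, Day5, Week10 and Month10 limma called 0 of 4, 4, 3 and 4 WT members tested, beside 6.23%, 3.61%, 0.0249% and 0.0% of all genes. Without the NDMA library under 300000 reads, 461 genes were higher and 410 lower at Day2, against 285 and 249. At Day5 this gave 474 and 320, against 192 and 120. Again 0 of 4 members were called at each of these 2 times. At Month10, 757 of 9254 WT genes had an unadjusted p under 0.05 in limma, edgeR called 0 genes and DESeq2 1. None of the WT members tested at these 4 times had an unadjusted p under 0.05 in limma, and edgeR and DESeq2 called 0 as well. Both of these tools gave Krt8 an unadjusted p under 0.05 at Day5. At Month10 WT Spp1 was at 13.01, 86.9 and 180 after NDMA and at 49.4, 90.3 and 158 after saline, and WT Krt18 was at 77.8, 182 and 442 against 56.0, 155 and 315, so both overlapped widely. Krt19 in WT livers at Month10 was at 0.796 RPM (0.455 to 1.29) after NDMA and 0.806 (0.387 to 1.48) after saline.

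The difference in response between the genotypes was tested with edgeR on whole reads of both genotypes together. It is given as the log2 fold change of NDMA in Mgmt-/- minus that in WT livers. At Day1 Spp1 (-1.52, adjusted p = 0.0007732) was the 1 gene called of 10589 tested (0.00944%), while limma on log2 values called 80 genes with Spp1 among them at -1.45. Spp1 had thus risen in WT and fallen in Mgmt-/- livers at that time, and the difference passed its own test. At Day2, where 4.02% of all genes were called, Krt8 was called (1.15, adjusted p = 0.04305), and limma did not call it. At Day5, beside 2.42% of all genes, Krt8 (1.87, adjusted p = 0.0002244), Krt18 (1.52, adjusted p = 0.0005401) and Spp1 (-1.50, adjusted p = 0.006855) were called. Of these, Spp1 was lost in limma, and with the high-Kap libraries kept Krt18 was lost at an adjusted p of 0.08809.

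At Week10, beside 6.8% of all genes, the genotype difference was 2.61 for Spp1 (adjusted p = 0.01332), 1.79 for Krt18 (adjusted p = 0.001626) and 1.41 for Krt8 (adjusted p = 0.009241), with Krt8 lost in limma. At Month10, beside 1.52%, it was 2.91 for Spp1 (adjusted p = 0.001565) and 1.15 for Krt18 (adjusted p = 0.02003). Sox9 was at 0.02 at Month10 (adjusted p = 0.992). The genotypes shared 2 batches at Day1, 1 at Month10 and 0 at Day2, Day5 and Week10, so that genotype and batch cannot be told apart in levels at those 3 times, and a response that differs between batches cannot be told apart from one that differs between genotypes.

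Among Mgmt-/- NDMA livers at Month10, the highest Spp1, 3669 normalized counts, was in the male D209016, where Krt19 was at 0.967, Krt7 at 0, Epcam at 1.93 and Cldn7 at 0, and Krt8 was at its lowest of the group, 52.2. Its Cd24a was 27.1, and its 11 macrophage markers summed to 1951, the highest of the 13 livers, with Lyz2 at 1149. Its 7 neutrophil markers summed to 1377 and its 6 erythroid markers to 18060, against group medians of 42.5 and 1024. Other genes of the biliary list varied in the same liver, with Tm4sf4 at 962.7, the highest of the 13, Tspan8 and Anxa13 at 16.4 each, the second highest, Cdh1 at 39.6 and Elf3 at 3.87 within the range of the others, Prom1 at 2.90, the fourth lowest, and Bicc1 at 5.80, the second lowest. Tm4sf4 was also at 158.6 to 302.9 in Mgmt-/- saline livers at Month10, where Krt19 was at most 3.70. In the male D209018, 5 members were at their highest of the 13, with Krt19 at 19.7, Krt7 at 16.2, Epcam at 13.9, Cldn7 at 10.4 and Cd24a at 31.2, while Sox9 was at its lowest, 8.10, and Prom1 and Bicc1 were mid-group at 11.6 each. Tspan8, a tetraspanin of ductal epithelium, was at 78.7 there, and the macrophage markers summed to 1377. At Week10 the female D209031 held the highest Krt19 (20.3), Krt7 (8.82), Epcam (12.3) and Cd24a (20.3) of its group, with Spp1 at 1481. How far the macrophages, neutrophils and red cells of these pieces add to Spp1 and Cd24a was not tested.

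**Figure D4:**
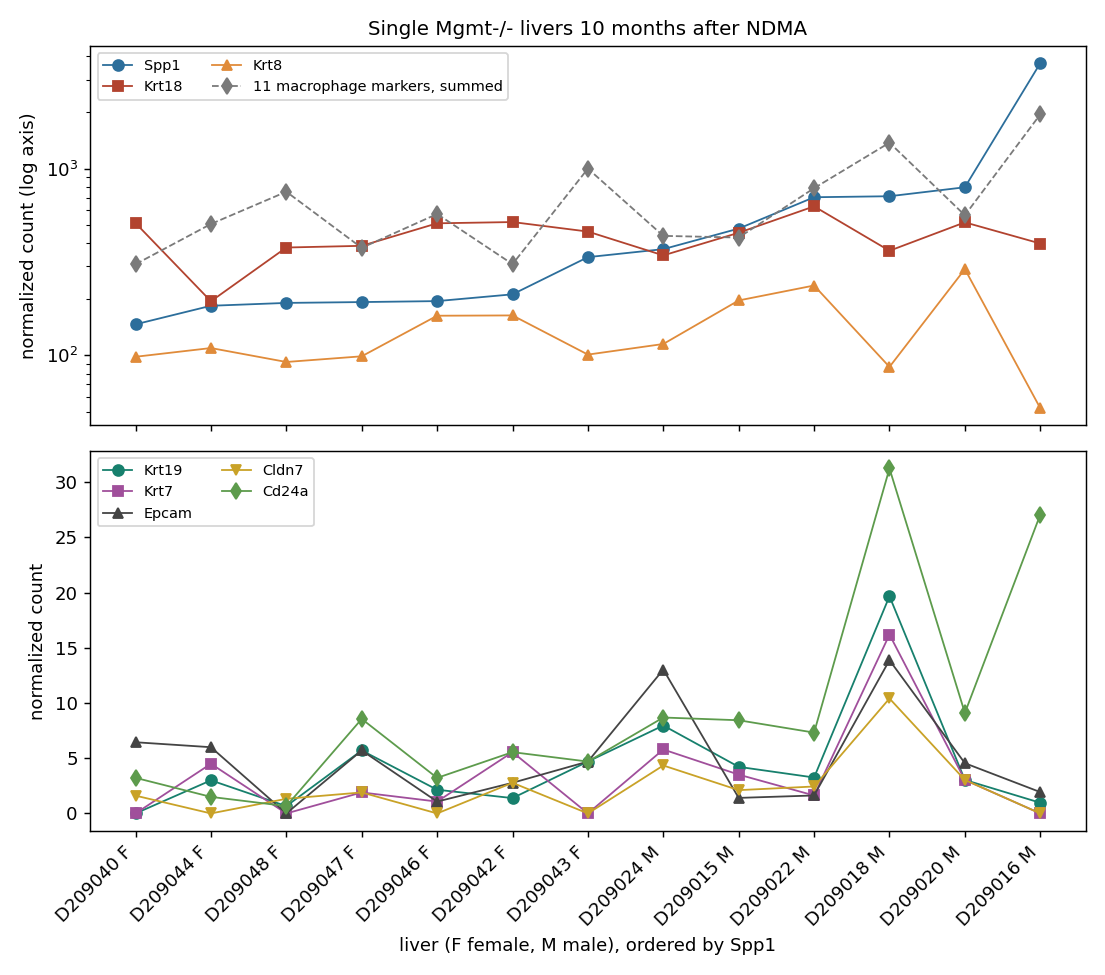
Normalized counts in the 13 Mgmt-/- NDMA livers at Month10, ordered by Spp1, with Spp1, Krt18, Krt8 and the summed macrophage markers above (log axis) and Krt19, Krt7, Epcam, Cldn7 and Cd24a below (linear axis). The 7 females hold Spp1 values of 147 to 336 and the 6 males 371 to 3669, and Krt19, Krt7, Epcam and Cldn7 peak together in D209018.

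Over these 13 livers, Krt19 was compared with each of the other 8 members on the log2(normalized count + 1) scale. The highest correlation was with Krt7 (Pearson r = 0.72, permutation p = 0.00495, 0.0396 adjusted over the 8 pairs, and Spearman rho = 0.60, permutation p = 0.0354, 0.2018 adjusted). Without D209018 and D209040, the livers farthest from the median of Krt19, r was 0.45 (adjusted permutation p = 0.6454). Leaving out the extremes of Krt19 narrows its range and leaves 11 livers, so this cannot show whether the relation rests on them. With library totals made equal the adjusted permutation p of Krt19 and Krt7 was 0.05152. Epcam (r = 0.58, rho = 0.47), Cd24a (0.52 and 0.54) and Cldn7 (0.51 and 0.50) had adjusted permutation p-values of 0.1395 for r and 0.2018 for rho. Spp1 (r = 0.18, rho = 0.37), Krt8 (0.07 and 0.14), Krt18 (-0.24 and -0.33) and Sox9 (-0.49 and -0.45) did not pass either. Without those 2 livers Epcam was at r = 0.76 (adjusted permutation p = 0.05952). All of these values share the depth of their library.

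Males and females were compared for the response to NDMA in Mgmt-/- livers at the late times, with sex by treatment as the term. In limma 0 members were called, beside 0.114% of all genes at Week10 and 0.338% at Month10, and 1 member at Week10 (Krt8) and 2 at Month10 (Spp1 and Cd24a) had an unadjusted p under 0.05, beside 408 of 9681 and 1968 of 10066 genes. At Month10 the male response minus the female response was 1.97 ± 0.55 for Spp1 (adjusted p = 0.08144) and 1.91 ± 0.65 for Cd24a (adjusted p = 0.1142). Spp1 was called in each sex alone, at 3.59 ± 0.47 in males and 1.62 ± 0.25 in females. Spp1 values of the 7 NDMA females (147 to 336) and of the 6 NDMA males (371 to 3669) did not overlap.

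Saline livers of pups and of Week10 adults were compared within shared batches to see how the members change with age. Cd24a was lower in adults in both genotypes, and passed the filter in each only through the pups. In WT livers it was at 1.29 ± 1.77 (SD, n = 8) at Week10 and 12.6 ± 7.51 (n = 7) at Day5, a log2 fold change of -2.69 ± 0.49 (adjusted p = 0.0002643), where 6.01% of all genes were lower. In Mgmt-/- livers it was at 2.30 ± 2.17 (n = 8) at Week10 and 37.4 ± 21.6 (n = 4) at Day1, a log2 fold change of -3.76 ± 0.63 (adjusted p = 0.0003803), where 4.8% of all genes were lower. Krt8, Krt18, Sox9 and Spp1 were not called in either genotype. The Cd24a level of Mgmt-/- NDMA livers at Week10, 12.6 ± 4.57 (n = 8), was thus set against saline adults in which this transcript had dropped to near 0.

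Genes whose pattern was most like that of Krt19 or Spp1 were sought over the 10 group means (treatment by time) of log2(normalized count + 1) in Mgmt-/- livers. For Krt19 the first 4 were Mlst8 (Pearson r = 0.94), Ccdc80 (0.92), Col4a2 (0.91) and Ldb2 (0.91) among 10094 genes. For Spp1 the first 5 were Prss23 (0.88), Tnfaip1 (0.84), Sox4 (0.82), Pde6d (0.81) and Olfml3 (0.81) among 10093 genes. With 10 means such values describe the ranking only.

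Other genes of biliary epithelium were measured from a list of 29, and several of them rose in Mgmt-/- livers at the late times. Of 17 tested at Week10, 6 were higher and 0 lower, with a list median log2 fold change of 0.57 beside 0.04 over all genes, and of 16 tested at Month10, 6 were higher and 0 lower, with a median of 0.31 beside -0.006. Over all genes 7.27% and 4.75% were higher at these times. Prom1, Tspan8, Elf3 and Anxa13 at Week10, and Prom1, Tspan8 and Anxa13 at Month10, had saline means under 5 and passed the filter only through the NDMA group, so the counts of 6 lean on that filter. In the first days 4 of 17 were higher at Day1, 3 of 16 at Day2 and 3 of 15 at Day5, where 9.06%, 12.4% and 11.1% of all genes were higher, with 1 lower, Onecut2 at Day2. Tspan8 rose from 1.89 ± 1.80 (SD, n = 8) to 29.7 ± 18.3 (n = 8) normalized counts at Week10 (log2 fold change 3.42 ± 0.44 SE, adjusted p = 8.606e-06). Cdh1, which encodes E-cadherin of epithelial junctions, rose at Month10 from 6.28 ± 4.06 (n = 12) to 32.3 ± 13.5 (n = 13) (2.34 ± 0.32, adjusted p = 7.432e-06) and was not called earlier. Anxa13, an annexin of epithelial membranes, was higher at Week10 (2.36 ± 0.35) and Month10 (2.36 ± 0.36), as were Prom1, the surface protein CD133 of progenitor and duct cells (2.57 ± 0.46 and 1.75 ± 0.36), and Bicc1 (1.20 ± 0.35 and 1.39 ± 0.42). Tm4sf4 was higher at all 5 times, from 1391 ± 480 against 683 ± 195 at Day1 to 457 ± 243 against 217 ± 45.5 at Month10. Saline livers thus held far more of it than of Krt19, and which cells carry Tm4sf4 was not tested. Elf3, an epithelial ETS factor, was higher at each time up to Week10, where it was at 10.4 ± 7.16 against 1.21 ± 1.09 (2.33 ± 0.41, adjusted p = 0.0003404). Spint2, a protease inhibitor, was higher at Day1 (0.84 ± 0.14), Day2 and Day5, and Onecut1, a factor of hepatobiliary development, at Day1 (1.01 ± 0.28). In WT livers the list gave 1 call at Day1 (Tm4sf4, higher) and 1 at Day5 (Cldn3, lower) and 0 at the other times, of 10 to 15 genes tested. Over all WT genes, 9.19%, 6.23%, 3.61%, 0.0249% and 0.0% were called in either direction, in order of time.

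**Figure D5:**
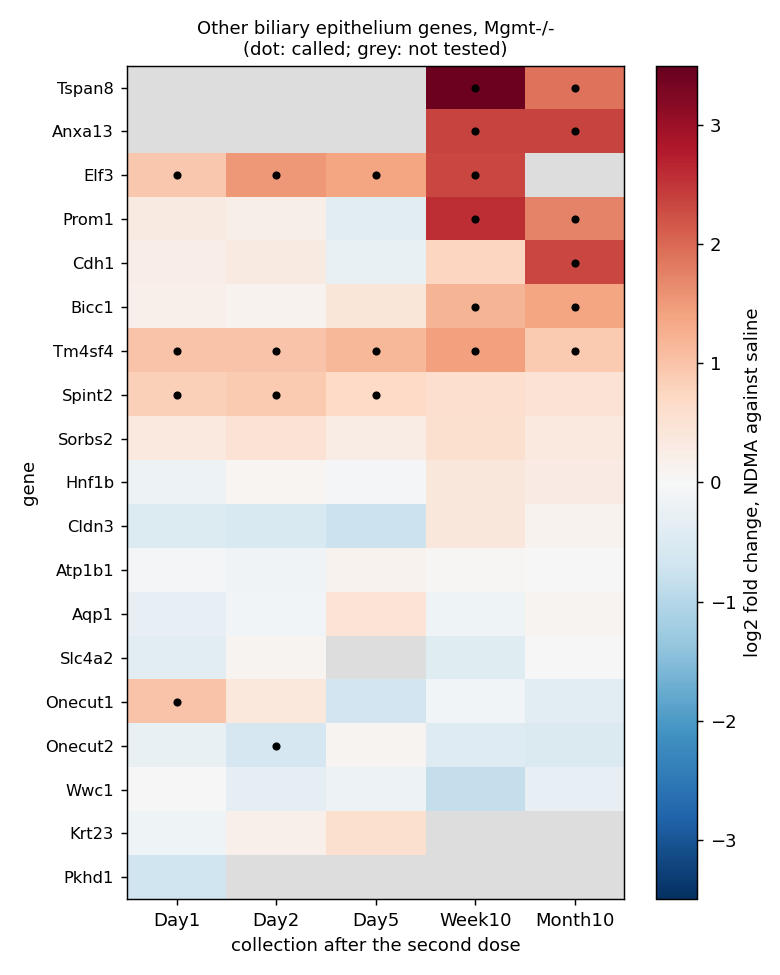
Log2 fold change of NDMA against saline in Mgmt-/- livers (color, red for higher and blue for lower) for the listed biliary epithelium genes tested at least once, by collection time. Dots mark called genes and grey marks genes below the filter, and the calls of Tspan8, Anxa13, Prom1 and Bicc1 are at Week10 and Month10 while those of Spint2 are at Day1 to Day5.

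Beside the counts of the lists that follow, the shares of all genes called higher were 9.06%, 12.4%, 11.1%, 7.27% and 4.75% in order of time, and those called lower 8.64%, 7.5%, 6.71%, 3.88% and 2.99%. Of 18 listed ligands, receptors and matrix genes of the ductular reaction, 6 were tested at each time, with 2, 3, 2, 2 and 2 higher in order of time and 1 lower, at Week10. Tnfrsf12a, the receptor Fn14 of the cytokine TWEAK, was higher at all 5 times, at 215 ± 124 against 35.9 ± 11.8 at Day1 (2.46 ± 0.26, adjusted p = 5.694e-08) and at 40.9 ± 20.4 against 18.3 ± 8.60 at Month10 (1.055 ± 0.23, adjusted p = 0.002719). Its ligand gene Tnfsf12 was not called at any time. Ccl2, which encodes a chemokine that attracts monocytes, was also higher at all 5 times, at 127 ± 72.8 against 6.99 ± 2.08 at Day1 (3.87 ± 0.22) and at 9.50 ± 5.52 against 2.70 ± 2.37 at Month10 (1.53 ± 0.42), where it passed the filter only through the NDMA group. Itga6, an integrin chain, was higher at Day2 (1.19 ± 0.30), and Met, the receptor of hepatocyte growth factor, was lower at Week10 (-1.06 ± 0.25).

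The Notch pathway, which sets biliary fate during development, gave 1 call over the 5 times among 3 to 6 tested genes of 14. Heyl, a Notch target, was lower at Day1, at 2.92 ± 2.93 against 7.91 ± 3.82 (-1.46 ± 0.39, adjusted p = 0.004659), and passed the filter only through the saline group. At Week10 the target Hes1 was at 143 against 120 normalized counts (0.42 ± 0.29, adjusted p = 0.4055) and the receptor Notch1 at 50.4 against 48.8 (0.06 ± 0.17, adjusted p = 0.8852). At Month10 Notch2 was at 15.3 against 16.7 (-0.09 ± 0.22, adjusted p = 0.8446) and Rbpj, the DNA-binding partner of Notch, at 11.8 against 11.9 (0.04 ± 0.23, adjusted p = 0.9352). The smallest adjusted p-values of the list at Month10 were those of Maml1, Hes1, Dll4 and Notch1, and 0 of 6 tested were called. Of 15 genes of the YAP and TEAD pathway, 9 to 12 were tested, with 3, 0, 1, 3 and 0 higher in order of time and 0 lower. These calls were Ajuba and Ccn1 (older symbol Cyr61) at Day1 and Week10, Crim1 at Day1 and Axl at Day5 and Week10. Yap1 itself was at 42.9 against 50.8 at Month10 (-0.27 ± 0.15, adjusted p = 0.2736).

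Receptors of osteopontin were higher in part. Of 7 listed, 6 were tested, with 3, 2, 2, 2 and 1 higher in order of time and 0 lower. Itga4, the integrin chain of leukocytes, was higher at all 5 times, up to 17.7 ± 6.13 against 4.40 ± 3.11 at Day2 (2.04 ± 0.39), and its saline means at Day2, Week10 and Month10 were under the filter of 5. Cd44 was higher from Day1 to Week10, at 83.9 ± 12.3 against 22.2 ± 4.64 at Day5 (1.88 ± 0.16, adjusted p = 4.02e-09), and Itgav at Day1 (0.68 ± 0.23). Itgb1 was not called, at 0.41 ± 0.17 at Week10 (adjusted p = 0.1343).

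Partners of the keratins and of claudins were measured from another pair of lists. Of 10 keratin linkers and desmosome genes, 8 were tested at each time, and the calls were Sqstm1, the gene of the aggregate protein p62, at Day5 (0.70 ± 0.16) and Ppl, periplakin, at Month10 (1.34 ± 0.37). Dsp, desmoplakin, was at 29.2 against 20.7 normalized counts at Week10 (0.75 ± 0.35, adjusted p = 0.1834), and Plec, plectin, at 67.1 against 46.2 at Month10 (0.44 ± 0.22, adjusted p = 0.2281). Of 13 tight junction genes, 10 to 12 were tested, with 0, 2, 1, 3 and 1 higher and 1, 1, 1, 0 and 0 lower in order of time. The list median log2 fold changes were -0.21, -0.02, -0.10, 0.01 and 0.49, beside 0.02, 0.03, 0.03, 0.04 and -0.006 over all genes. F11r, the junctional adhesion molecule A, was higher from Day2 to Month10, at 462 ± 35.0 against 244 ± 51.5 at Day2 (0.94 ± 0.12). Marveld2 was higher at Day2 (0.88 ± 0.22), and Cldn1 (0.66 ± 0.21) and Tjp3 (1.63 ± 0.50) at Week10. Cldn2, a claudin that forms pores, was lower at Day1, Day2 and Day5, at 53.8 ± 6.78 against 103 ± 14.9 at Day5 (-0.92 ± 0.14).

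Markers of other cells were summed in the same Mgmt-/- livers. The 11 macrophage markers summed to medians of 1015 against 785 normalized counts at Day1, 1803 against 812 at Day2, 1690 against 842 at Day5, 1342 against 559 at Week10 and 563 against 327 at Month10, led by Lyz2. Of those tested, 5 of 10, 8 of 10, 9 of 11, 6 of 9 and 5 of 8 were higher, and Clec4f of Kupffer cells was lower at Day1. Of those higher, 3, 4, 4, 3 and 2 in order of time had saline means under 5 and passed the filter only through the NDMA group, so these counts lean on it, and Mmp12 was at 0 in all saline livers at Day2. The 10 stellate cell and fibroblast markers, led by Dcn, summed to 769 against 1112 at Day1, 950 against 1150 at Day5, 732 against 429 at Week10 and 602 against 599 at Month10. Among the collagen genes, Col1a2 was called lower at Day1 and Day2 and Col3a1 at Day1, Day2 and Day5, while Col1a1 and Col1a2 were called higher at Week10 and Month10 and Col3a1 at Week10. Acta2 was higher at all 5 times and Timp1 at the first 4. Reln was lower at Day1, Day2, Day5 and Month10, Lrat at Day1 and Day2, Dcn at Day1 and Pdgfrb at Day5. The part of macrophages and of stellate cells in Spp1 was not tested.

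Neutrophil markers, led by S100a8 in most groups, had summed medians of 63.3 against 308 at Day5 and 188 against 76.5 at Week10, and 3, 3 and 5 of them were lower at Day1, Day2 and Day5, with Ltf higher at Day2. At Week10, when Cd24a was higher, Ngp and Camp were higher. Erythroid markers, led by Hba-a1 in all but 1 of the groups summarised, had medians of 5115 against 10150 at Day1 and 6766 against 13260 at Day5, with 4 of 4, 3 of 4 and 5 of 5 tested lower at the 3 early times. Both were lower at Day1 and Day2, when Cd24a was lower, and the part of neutrophils, red cells and B cells in Cd24a was not tested at either stage. B cell markers, led by Cd79b, had medians of 15.1 against 21.2 at Day1, where Cd79b was lower and 1 of 2 tested was called, and of 13.1 against 7.95 at Week10 with 0 of 1 called. Fetal liver markers were at 164 against 13.9 at Week10, led by H19, and at 32.2 against 11.1 at Month10, with Lin28b at 0 in all 4 groups. Their medians at Day1, Day2 and Day5 were 1822 against 1724, 2300 against 796 and 571 against 124.9. Afp was called higher at these 3 times and Gpc3 at Day5. Cell division markers, led by Top2a at Week10, were at 79.1 against 18.5 at Week10 and 29.0 against 9.11 at Month10. At Day1, Day2 and Day5 these were at 296.1 against 223.0, 411.7 against 178.8 and 205.6 against 134.5, with 1, 3 and 2 of 4 called higher. Hepatocyte markers, led by Alb at the early times, had medians of 196700 against 302800 at Day1, 241100 against 362800 at Day2 and 257100 against 343800 at Day5, with 3, 3 and 1 of 5 called lower, when Krt18 and Krt8 were higher, and the part of this in the keratin values was not tested. Led by Ttr at Week10, they had medians of 132600 against 187200 at Week10, where Serpina1c was called lower, and 161600 against 155500 at Month10, where Apoa1 was called higher.

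Markers of tissues next to the liver were also summed in the Mgmt-/- libraries used. Mesothelial markers had summed medians of 21.2 against 17.8 at Week10 and 12.5 against 12.5 at Month10, led by Upk3b or Upk1b. Kidney markers were at 2.06 against 1.65 at Week10 and at 0.724 against 0 at Month10, with Kap, Umod and Slc12a1 at 0 in these 4 groups. Pancreas markers consisted almost only of Cela2a, with summed medians of 4.81 against 5.84 at Week10 and 3.47 against 0.434 at Month10, with Pnlip at 0 in all 4 late groups. Intestine markers were led by Fabp2, which the liver also expresses, with summed medians of 670 against 596 at Week10 and 264 against 516 at Month10, where Fabp2 was called lower, and Muc2 was at 0 in the Week10 groups. Fabp2 was called higher at Day1, Day2 and Day5, where the sums were at 1383 against 696.5, 1477 against 713.4 and 1569 against 440.7.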

How the data were processed

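Liver RNA was sequenced by 3′ digital gene expression. Alignment was by STAR to the mm10 build (GRCm38) and counting by ESAT. The authors deposited counts divided by DESeq2 size factors, as a signal per gene (here normalized count), with each genotype normalized separately. Tool versions and the annotation are not given in the sources used here. Whole reads were recovered from these values in 209 of 213 libraries (within 0.01 reads), and the other 4 were left out of count tests. Of 214 labelled samples, 213 had values in the data used here, and a labelled Mgmt-/- saline Month10 male had none. The 2 Mgmt-/- saline Day5 libraries with Kap over 1000 were left out, which leaves 211.

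NDMA and saline were compared with limma 3.58.1 (trend, robust, two-sided) in R 4.3.3 on log2(normalized count + 1), with sex, and batch where it could be fitted, as covariates, for genes with a mean of at least 5, with Benjamini-Hochberg adjustment. In WT livers at Day2, Day5 and Week10 each sex was in a batch of its own, so batch was not fitted and sex and batch cannot be told apart. A fold change is on this scale and understates the change of low genes. For genotype by treatment, recovered reads with TMM factors entered the quasi-likelihood test of edgeR 4.0.16. DESeq2 1.42.0 was an alternative, as were other pseudocounts, filters and scalings, single sexes and batches, and leaving out each library. Correlations used 100000 permutations, two-sided (SciPy 1.17.1). Scripts were tested on simulated data.

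Members and lists were chosen with earlier results of these data known. The text names the 9 members, up to 4 genes of each list with the smallest adjusted p in Mgmt-/- livers at Day1, Week10 and Month10, genes called at all 5 times, the most abundant gene of each marker list and its members at 0, the 5 genes most like Krt19 and Spp1, of which 1 is not reported here, and Kap and Mgmt. Other genes named to identify a call were chosen after their values were seen. Each library is 1 liver, and p-values measure the spread between these livers. Poisson intervals are at 95% and cover counting error only.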

Additional observations from a re-analysis of the deposited data

Results flagged for a closer look

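Among 52 sets of 4 to 10 livers (1 gene in 1 group) tested for a value far from the others, 10 held one, where chance gives about 1 in 20. In WT NDMA livers at Day2, D215006 was at 0 for Krt8 (next liver 6.72), 431.2 for Krt18 (161.1) and 42.07 for Spp1 (198.4). In WT NDMA livers at Week10, D215022 was at 0 for Krt8 (16.5), 376.5 for Krt18 (140.7) and 20.53 for Spp1 (113.6). In WT NDMA livers at Day5, D215014 was at 40.99 for Spp1 (161.3). These 3 libraries are among the 4 with fewer than 300000 reads. D215004, a WT saline liver at Day2, was at 0 for Cd24a (3.98). In Mgmt-/- livers, D389096 (NDMA, Day5) was at 166.3 for Spp1 (119.1) and the saline male D209003 (Week10) at 621.3 (95.23). In D209003 the macrophage markers summed to 500.7 and the stellate markers to 377.7, and Krt19 was at 0.

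The response to NDMA differed between genotypes in 10 tests by edgeR (log2 fold change in Mgmt-/- minus WT). These were Spp1 at Day1 (-1.522), Krt8 at Day2 (1.152), Krt8 (1.867), Krt18 (1.519) and Spp1 (-1.505) at Day5, Krt8 (1.411), Krt18 (1.786) and Spp1 (2.612) at Week10, and Krt18 (1.151) and Spp1 (2.908) at Month10. At Day2, Day5 and Week10 the genotypes shared no batch, so batch and genotype cannot be told apart there.

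The 2 Mgmt-/- saline Day5 libraries left out, D389011 and D389017, held several members far above the 6 libraries kept. Krt7 was at 79.91 and 100.2 normalized counts (highest of those kept 3.07), Epcam at 58.79 and 60.99 (2.05), Spp1 at 6797 and 6394 (341.8), Cd24a at 135.2 and 223.3 (39.18) and Cldn7 at 22.88 and 31.59 (2.465). Krt18 was at 24.99 and 37.03, below the 184.3 of the lowest library kept.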

How the results depend on the processing

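No paired analysis was possible because the replicate names are unique to each liver and no number is shared between groups. Counts of members called in Mgmt-/- livers ranged over leaving out 1 library from 4 to 4 at Day1, 2 to 3 at Day2, 3 to 4 at Day5, 4 to 5 at Week10 and 2 to 2 at Month10. The count was 2 at Day1 in males alone, where Spp1 and Cd24a were not called, 1 at Day2 in females alone (Krt8 and Cd24a lost), 2 at Week10 in males alone (Krt8 and Cd24a lost) and 7 at Week10 with no filter, which lets 9 members be tested. With no filter, 991 of 17655 genes were higher and 363 lower at Week10. Batch 200803Eng alone gave 2 higher and 1 lower at Day1 (Cd24a lost), and the count was 3 at Month10 in males alone. In WT livers at Day1 it was 0 in batch 200803Eng alone, and the genotype count at Day2 was 0 with limma. The Krt19 and Krt7 correlation was 0.452 without the 2 livers farthest from the median and 0.717 with library totals made equal, where its adjusted p of 0.05152 no longer passed, and that of Krt19 and Spp1 was -0.178 without the 2 livers.

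Directions turned for Cd24a in WT livers at Day1 in batch 200803Eng (0.07582) and for Sox9, which was not called: at Day1 in Mgmt-/- livers with equal library totals (0.1298), males alone (0.03993), DESeq2 (0.004899) and 11 left-out libraries (0.0001338 to 0.2042, where the full range over left-out libraries was -0.1621 to 0.2042), at Month10 in males alone (-0.3569), and for genotype at Month10 with no filter (-0.02686). The cause was not tested. Krt8 at Day2 in Mgmt-/- livers was also lost without D389041, D389047, D389083 or D389089, Cd24a at Day5 was called without D389024 or D389078, and Sox9 at Week10 without D209006.

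Making library totals equal moved the median log2 fold change of all genes in Mgmt-/- livers from 0.0158 to 0.2025 at Day1, 0.0306 to 0.1954 at Day2, 0.0251 to 0.1719 at Day5 and 0.0396 to 0.2409 at Week10. Without the 2 WT libraries whose sex genes went against the label, an alternative chosen after seeing the data, 2 members were called at WT Day1. Few reads per liver limit Krt19, Krt7, Epcam and Cldn7.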
